A study of Sus scrofa with 8 samples.

Results

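Cell cycle and DNA replication genes were examined in the endometrium, the inner lining of the uterus, of 4 pregnant and 4 control gilts (young female pigs) on day 14 after insemination. The set was named by gene symbol and holds 34 genes: cyclins, cyclin-dependent kinases, replication origin factors, enzymes of DNA synthesis, mitotic regulators and inhibitors of the kinases. Of the 34 genes, 24 matched a transcript in the deposited tables, out of 21064 genes in all, and 10 did not (RRM1, RRM2, TYMS, MCM5, MCM6, MCM7, MKI67, BUB1B, PLK1 and CDKN1B), which are not analysed here. Where a gene had several transcripts, the one with most reads on average was used, and all 24 passed the filter on low counts.

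All 8 gilts were prepuberal German Landrace animals that received 750 IU of PMSG and, 72 h later, 500 IU of hCG, gonadotropins that start follicle growth and set off ovulation. The pregnant group was inseminated with Pietrain semen at 24 h and 36 h after hCG, and the control group with supernatant of centrifuged semen of the same boar. Pregnant tissue came from the reddened zones where embryos attach and control tissue from corresponding places, without the muscle layer, so pregnancy and the choice of zone cannot be told apart. RNA from 3 places along a single uterine horn was pooled for each animal, and each library stands for 1 animal. Total counts per library ran from 28035007 to 41016150. Of 14 epithelial and 13 stromal fibroblast markers 12 and 11 matched a transcript, and 0 and 0 of these were without reads. Of 13 conceptus genes, listed to look for embryonic tissue in a sample, 10 matched and 4 passed the filter. Of these 4, GATA3 rose, with 845 reads in the pregnant libraries together against 350 in the controls. TFAP2C (415 against 403), HSD3B1 (77 against 76) and STAR (55 against 52) had like counts in both groups. All 4 had reads in control animals, so they do not mark embryonic tissue alone. The summed level of the 10 matched genes was 9.46 to 13.04 CPM in pregnant and 5.27 to 9.48 CPM in control animals. The 6 that did not pass the filter had few reads. In the pregnant libraries together, against the controls, ELF5 had 40 against 15 and the interferon gene IFNG 26 against 4. HAND1 had 16 against 4, the conceptus interleukin gene IL1B2 14 against 2 and CDX2 4 against 0. The steroid enzyme gene CYP17A1 went the other way, with 7 against 11.

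A dividing cell passes in turn through a growth phase (G1), DNA synthesis (S), a second growth phase (G2) and mitosis. D-type cyclins and then E-type cyclins switch on their kinases in G1, E2F factors then turn on genes for DNA synthesis, MCM proteins are loaded at replication origins by CDC6 and CDT1, and cyclin A and B with CDK1 carry the cell into mitosis. The inhibitor p21, encoded by CDKN1A, binds cyclin-kinase complexes and PCNA and can hold cells in G1, and it is also induced in cells that leave the cycle to differentiate. In the uterine lining, ovarian steroids govern how much epithelium and stroma divide. In tissue RNA, fewer cells of a type and less RNA per cell cannot be told apart.

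The clearest difference between the groups was in the inhibitor CDKN1A, which rose about 4-fold in pregnant endometrium, while genes of DNA synthesis and mitosis had no member past the test. Of the 24 genes 2 rose (8.33%), CDKN1A and the D-type cyclin gene CCND3, and 0 fell, at an adjusted p under 0.05 (edgeR, quasi-likelihood F test, Benjamini-Hochberg over all 18783 transcripts). Among all transcripts tested 11.2% rose and 10.1% fell, so the share of changed cell cycle genes was not above the background. At an unadjusted p under 0.05, 4 genes were higher and 1 lower, and 0 of the 24 fell by DESeq2 or limma voom. The median log2 change (pregnant over control) was 0.23 over the 24 genes and -0.02 over all transcripts tested. Of the 24, 17 (70.8%) were above 0, against 47.9% of all transcripts. The signs of MCM2, CCNB1, CCNB2, CDC20 and AURKB turned in some alternatives. Many of the 24 genes also varied together between animals, so their signs are not independent and were not tested as a set.

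**Figure D1:**
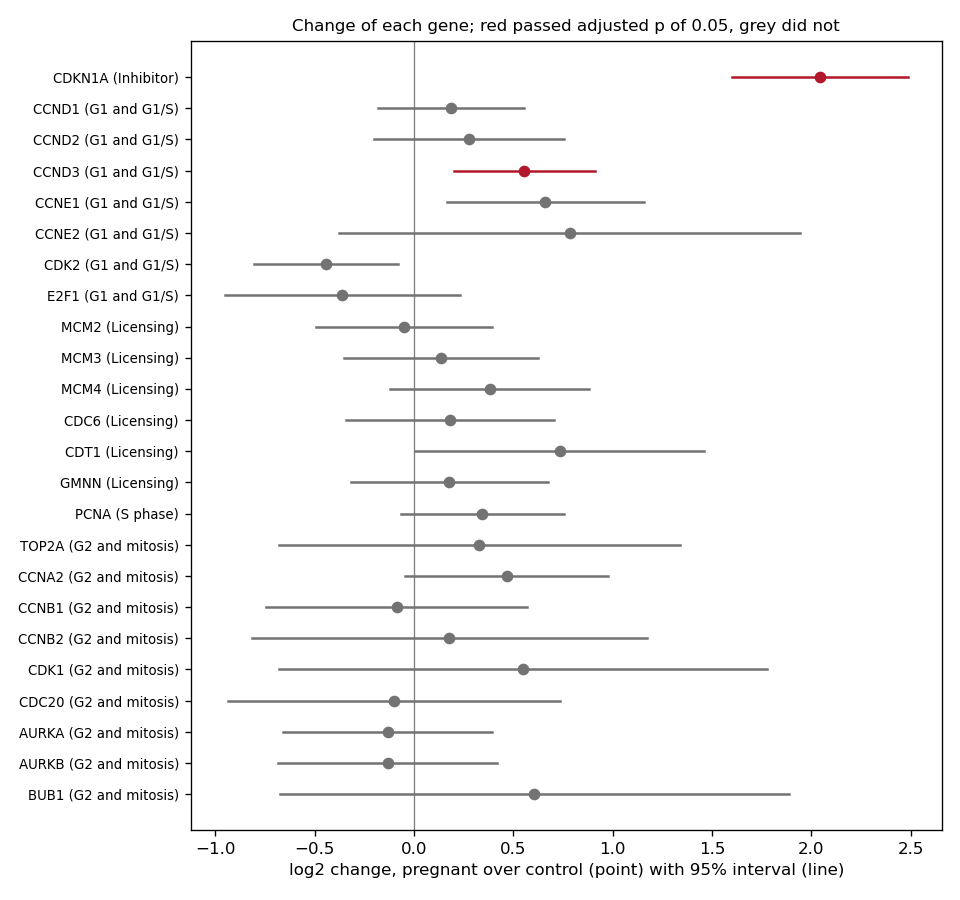
Log2 change of each of the 24 genes, pregnant over control, with its 95% interval from the edgeR fit. CDKN1A (2.04) and CCND3 (0.56), in red, passed an adjusted p of 0.05, and the intervals of most genes in grey include 0.

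CDKN1A stood at 59.5, 56.2, 62.0 and 50.4 CPM in pregnant replicates 1 to 4, against 18.2, 10.24, 10.5 and 16.3 CPM in control replicates 1 to 4 (CPM, the counts scaled to a fixed library size with TMM factors, are the level unit throughout). Every pregnant animal lay above every control, and the gap between the groups was wider than the range within either. The means were 57.0 ± 5.04 CPM in pregnant and 13.8 ± 4.05 CPM in control animals (SD, n = 4 each). The log2 change was 2.04 ± 0.20 (SE), a 4.12-fold difference with a 95% interval of 3.04 to 5.60 (edgeR adjusted p = 7.28e-05). The gene is Entrez gene 100152215 on chromosome 7, 37258078 to 37267160 of Sscrofa10.2, with 3 exons in the transcript used. CDKN1A passed in every alternative, with log2 changes of 1.93 to 2.22.

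Several marker lists also differed between the groups, and whether they followed CDKN1A from animal to animal was not tested. Of 10 tested T cell markers 9 rose, with a summed level of 98.1 to 175.7 CPM in pregnant and 27.5 to 73.9 CPM in control animals. Of 11 cytotoxic cell markers 10 rose (84.1 to 136 CPM summed in pregnant, 16.3 to 41.5 CPM in control animals), and of 11 macrophage markers 10 rose and 1 fell (1190 to 1586 CPM summed in pregnant, 397 to 722 CPM in control animals). Of 12 epithelial markers 1 rose and 4 fell (1791 to 2477 CPM summed in pregnant, 2372 to 3582 CPM in control animals). Of 7 markers of B and plasma cells 4 rose and 0 fell (53.7 to 244 CPM summed in pregnant, 35.3 to 46.7 CPM in control animals). Of 11 stromal fibroblast markers 4 rose and 2 fell. Of these 11 log2 changes 7 were above 0 and 4 below, with a median of 0.19. The summed level of the 11 markers went the other way. It was lower in every pregnant animal (17841 to 25721 CPM) than in any control (26285 to 31599 CPM). A sum is weighted to the genes with most reads, so it does not speak for most of these markers. Of 11 endothelial markers 2 rose and 0 fell (1128 to 1519 CPM summed in pregnant, 914 to 1412 CPM in control animals). Of 8 smooth muscle markers 0 rose and 4 fell. Among all transcripts tested 11.2% rose and 10.1% fell. None of these lists had a matched marker without reads (0 in each). The sums cover all matched markers, also those not tested. These were 11 for T cells, 12 for cytotoxic cells, 12 for macrophages and 9 for B and plasma cells. The part of these cell types in the levels of CDKN1A and CCND3 was not tested.

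The G1 genes did not move as a block. These cyclins bind and activate the kinases that release E2F factors, and they comprise CCND1, CCND2, CCND3, CCNE1 and CCNE2, with the kinase gene CDK2 and the factor gene E2F1 beside them. Of the 7 tested, 1 rose and 0 fell, with a median log2 change of 0.28.

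CCND3, the D-type cyclin prominent in lymphoid and differentiating cells, had 21.6, 24.2, 25.5 and 18.9 CPM in the pregnant animals against 18.2, 13.1, 16.8 and 13.2 CPM in controls. The groups did not overlap, but the lowest pregnant animal (replicate 4) and the highest control (replicate 1) lay close together. The means were 22.5 ± 2.93 CPM in pregnant and 15.3 ± 2.60 CPM in control animals (SD, n = 4 each). The log2 change was 0.56 ± 0.16, a 1.47-fold difference with an interval of 1.15 to 1.88 (edgeR adjusted p = 0.0322; Entrez gene 780426, chromosome 7, 42489106 to 42493234). CCND3 no longer passed when any 1 of 6 animals was left out, namely control replicates 2, 3 and 4 and pregnant replicates 1, 2 and 3 (edgeR adjusted p = 0.0516 to 0.0888; all alternatives together gave 0.00833 to 0.0888). The transcript model of CCND3 holds only 489 bases of exon in 4 exons.

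The other D-type cyclin genes did not pass. CCND1, which links growth factor signals to G1, had 13.2, 18.1, 13.1 and 17.3 CPM in the pregnant animals and 14.8, 14.9, 13.5 and 11.1 CPM in controls. The groups overlapped, with 2 pregnant animals below 3 of the controls, and the log2 change was 0.19 with a 95% interval of -0.18 to 0.55 (edgeR adjusted p = 0.465; Entrez gene 100738589, chromosome 2, 2314897 to 2354161). CCND2 had 4.11, 4.34, 5.00 and 4.97 CPM in the pregnant animals and 4.07, 2.61, 3.95 and 4.58 CPM in controls. Control replicate 2 was the low value there, and the log2 change of CCND2 was 0.28 with an interval of -0.20 to 0.75 (edgeR adjusted p = 0.403; Entrez gene 397162, chromosome 5, 68314783 to 68331943). The CCND1 model holds 12 exons over this span, and whether all of them belong to CCND1 was not tested, so its values are uncertain. Differences above about 1.47-fold for CCND1 and 1.69-fold for CCND2 lie outside these intervals.

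Cyclin E drives entry into S phase together with CDK2, and its gene CCNE1 was close to the threshold. CCNE1 had 3.33, 4.68, 5.76 and 4.45 CPM in the pregnant animals against 3.12, 3.17, 2.32 and 2.89 CPM in controls. All pregnant values lay above all control values, pregnant replicate 1 only just. CCNE1 differed by 0.66 ± 0.22 on the log2 scale (edgeR adjusted p = 0.0598; Entrez gene 100523248, chromosome 6, 35242726 to 35255440), and it passed with DESeq2 (0.0203) and without pregnant replicate 1 (0.0348; range over the alternatives 0.0203 to 0.152). The related CCNE2 was at 1.09 ± 0.367 CPM in pregnant and 0.630 ± 0.495 CPM in control animals (edgeR adjusted p = 0.322). Its 7.83-fold span among the controls rests on few reads, from 5 in replicate 1 to 40 in replicate 3. The CCNE2 model shares exonic bases with INTS8 on the opposite strand, and the libraries do not mark strand, so its value is uncertain.

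CDK2, the kinase partner of cyclins E and A, lay on the other side of 0. It had 8.39, 8.47, 9.07 and 9.82 CPM in the pregnant animals and 9.19, 13.3, 12.05 and 13.9 CPM in controls. Control replicate 1 fell among the pregnant values, whereas the other 3 controls lay above all of them. The log2 change was -0.44 ± 0.16 (edgeR adjusted p = 0.0818; Entrez gene 100154715, chromosome 5, 22941173 to 22947587), and CDK2 passed without control replicate 1 (log2 change -0.53, adjusted p = 0.0259; range over the alternatives 0.0259 to 0.181). The 3 transcripts of CDK2 gave log2 changes of -0.44, -0.45 and -0.47. E2F1, an activator of S phase genes, was at 7.16 ± 1.19 CPM in pregnant and 9.19 ± 3.69 CPM in control animals (edgeR adjusted p = 0.375), and control replicate 3 held its highest value, 14.3 CPM.

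**Figure D2:**
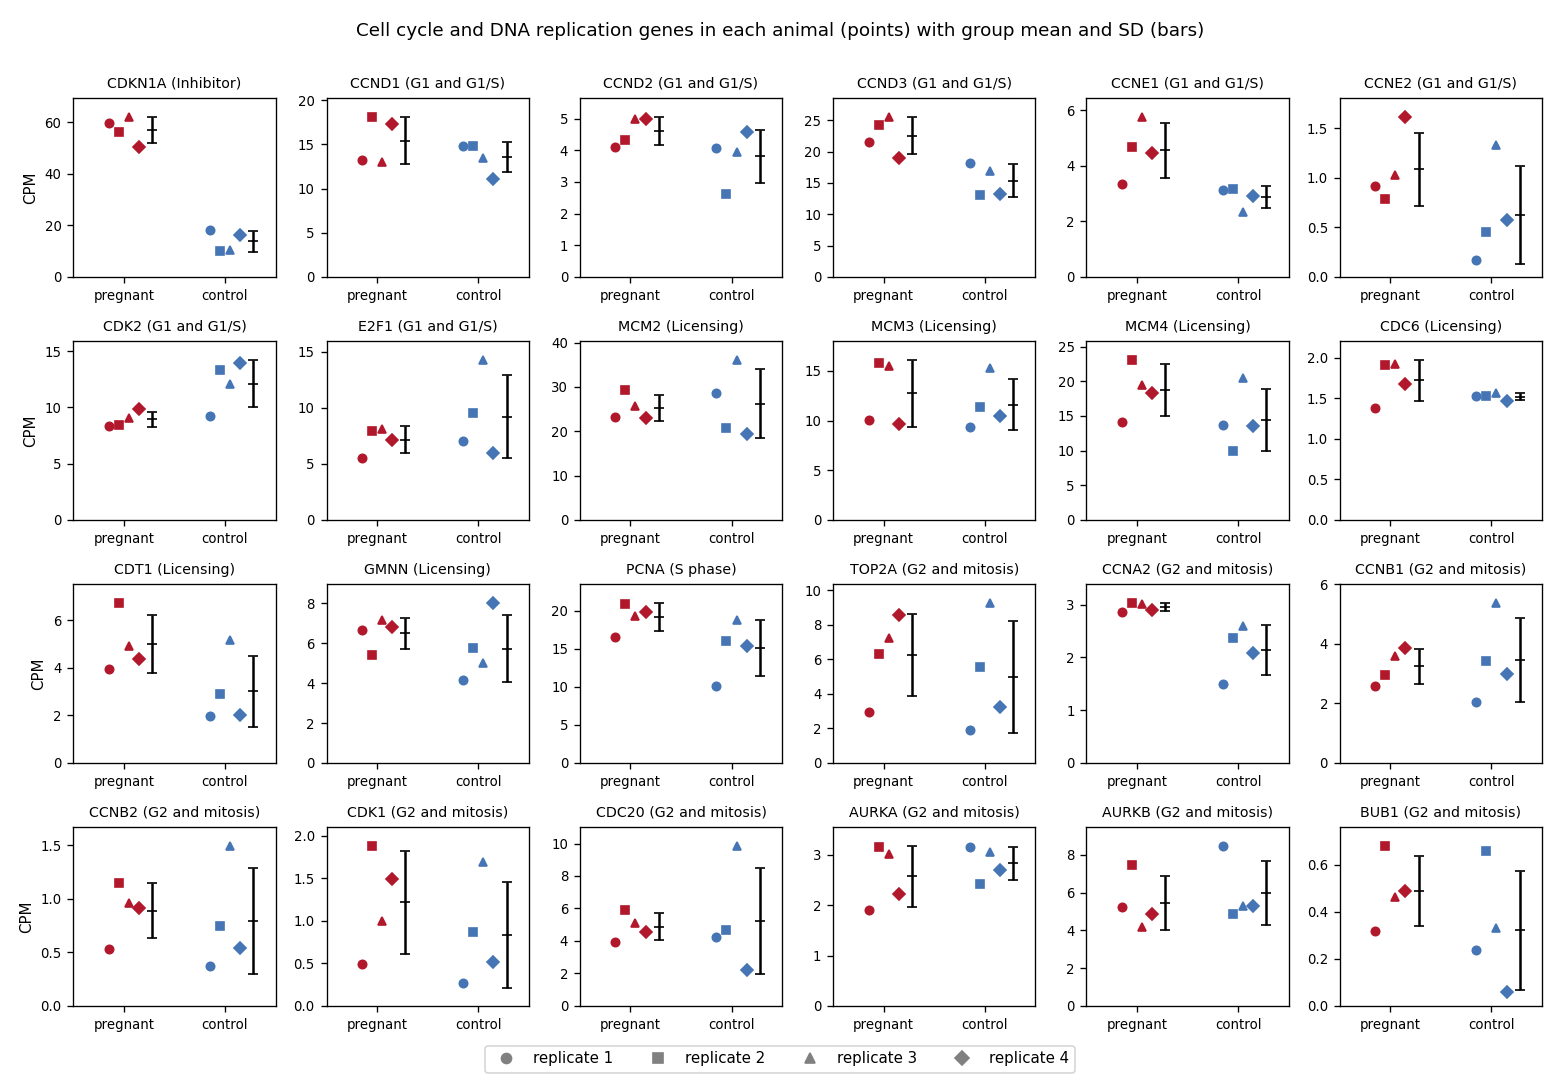
CPM of each of the 24 genes in each animal, pregnant left and control right, with the symbol of a point giving the replicate and bars giving mean and SD (n = 4). CDKN1A lies between 50.4 and 62.0 CPM in pregnant animals and between 10.24 and 18.2 CPM in controls, and for TOP2A, CDK1 and CDC20 the control triangle (replicate 3) stands high.

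Genes that license origins for replication had 0 of 6 members past the test. At an unadjusted p under 0.05 there was 1, CDT1, and neither DESeq2 nor limma voom called any of the 6. MCM2, MCM3 and MCM4 encode subunits of the helicase that opens DNA at the fork. MCM2 had 23.2, 29.3, 25.7 and 22.9 CPM in the pregnant animals and 28.7, 20.6, 36.1 and 19.3 CPM in controls, and the pregnant values fell inside the range of the controls. The log2 changes were -0.05 (interval -0.49 to 0.39) for MCM2, 0.14 (-0.35 to 0.62) for MCM3 and 0.38 (-0.12 to 0.88) for MCM4, with edgeR adjusted p = 0.893, 0.706 and 0.266.

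CDT1 loads the MCM helicase and is itself blocked by geminin, the product of GMNN. CDT1 had 3.96, 6.74, 4.93 and 4.36 CPM in the pregnant animals and 1.97, 2.90, 5.18 and 2.01 CPM in controls. Control replicate 3 lay within the pregnant range and the other 3 controls below it. CDT1 differed by 0.73 ± 0.33 on the log2 scale (edgeR adjusted p = 0.144; Entrez gene 100525749, chromosome 6, 1085584 to 1089920), and without control replicate 3 CDT1 passed with a log2 change of 1.124 (adjusted p = 0.0230; range over the alternatives 0.0230 to 0.335). GMNN was at 6.50 ± 0.771 CPM in pregnant and 5.73 ± 1.66 CPM in control animals, and the loading factor gene CDC6 at 1.72 ± 0.253 CPM in pregnant and 1.52 ± 0.0416 CPM in control animals (SD, n = 4 each), with edgeR adjusted p = 0.614 and 0.629.

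PCNA, the sliding clamp that holds DNA polymerase on its template, was the single matched gene of the S phase group. It had 16.5, 20.9, 19.4 and 19.9 CPM in the pregnant animals and 10.1, 16.1, 18.9 and 15.4 CPM in controls. The pregnant animals lay high and close together, but pregnant replicate 1 was below control replicate 3. The log2 change was 0.34 ± 0.19 with an interval of -0.07 to 0.76, so that a PCNA difference of more than 1.69-fold lies outside it (edgeR adjusted p = 0.220; Entrez gene 692192, chromosome 17, 15127102 to 15132939).

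Of the 9 genes of G2 and mitosis 0 passed, 0 at an unadjusted p under 0.05 as well, and 0 by DESeq2 or limma voom. TOP2A, the topoisomerase that untangles replicated chromosomes, had 2.97, 6.30, 7.21 and 8.54 CPM in the pregnant animals and 1.90, 5.57, 9.26 and 3.21 CPM in controls. The lowest and the highest of the 8 animals were both controls. The log2 change of TOP2A was 0.33 ± 0.46 with an interval of -0.68 to 1.34, which spans pregnant levels from 0.625 to 2.53 times the control level (edgeR adjusted p = 0.651; Entrez gene 396917, chromosome 12, 22310213 to 22337484). CDK1, the kinase that starts mitosis, also overlapped between the groups, with 0.495, 1.88, 0.993 and 1.49 CPM in the pregnant animals and 0.271, 0.868, 1.69 and 0.516 CPM in controls.

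CCNA2, the cyclin of S phase and G2, was the 1 gene of this group whose values did not overlap. It had 2.87, 3.03, 3.01 and 2.90 CPM in the pregnant animals and 1.49, 2.37, 2.59 and 2.09 CPM in controls. The pregnant animals were nearly identical, and the controls spread more widely beneath them. The log2 change was 0.47 ± 0.23 and did not pass (edgeR adjusted p = 0.181; Entrez gene 100415929, chromosome 8, 109455844 to 109461771). In all, 4 of the 24 genes (16.7%) had every pregnant value above every control value, CDKN1A, CCND3, CCNE1 and CCNA2, against 13.2% of all transcripts tested, and 0 had every pregnant value below, against 12.9%.

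The other mitotic genes had log2 changes between -0.13 and 0.61. The mitotic cyclin genes CCNB1 and CCNB2 were at -0.09 (interval -0.74 to 0.57) and 0.18 (-0.82 to 1.17), and CDC20, which activates the ligase that ends mitosis, at -0.10 (-0.94 to 0.73). The mitotic kinase genes AURKA and AURKB were both at -0.13, with intervals of -0.66 to 0.39 and -0.68 to 0.42, and BUB1 of the spindle checkpoint at 0.61 (-0.67 to 1.89). BUB1 rested on 65 reads in the pregnant and 41 in the control libraries, and CCNB2 on 118 and 100, so depth limits their values. The edgeR adjusted p of these 6 genes lay between 0.496 and 0.884.

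The spread between animals was shared among these genes. For each gene, the deviation of an animal from the mean of its own group was taken on a log2(CPM + 0.5) scale, and no test was made of it. Of the 16 genes of DNA synthesis, licensing, G2 and mitosis, 12 were highest among controls in control replicate 3, where 19.8% of all transcripts tested were. The 4 exceptions were GMNN, AURKA, AURKB and BUB1. The median deviation of all 16 genes in that animal was 0.45, against 0.01 over all transcripts.

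Among the pregnant animals, replicate 1 was lowest for 12 of the 16 genes, where 28.3% of all transcripts were, with a median deviation of -0.27. Pregnant replicate 2 was highest for 12 of them (19.5% of all transcripts), and control replicate 1 lowest for 9, or 56.25%, where 33.8% of all transcripts were. In TOP2A the highest control stood 4.88-fold above the lowest, in CDK1 6.24-fold and in CDC20 4.47-fold, which is more than any of their differences between the group means. The highest and lowest pregnant animals were 2.87-fold, 3.80-fold and 1.503-fold apart in the same genes. The spans of CDK1 rest on few reads, 8 in control replicate 1 and 14 in pregnant replicate 1.

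**Figure D3:**
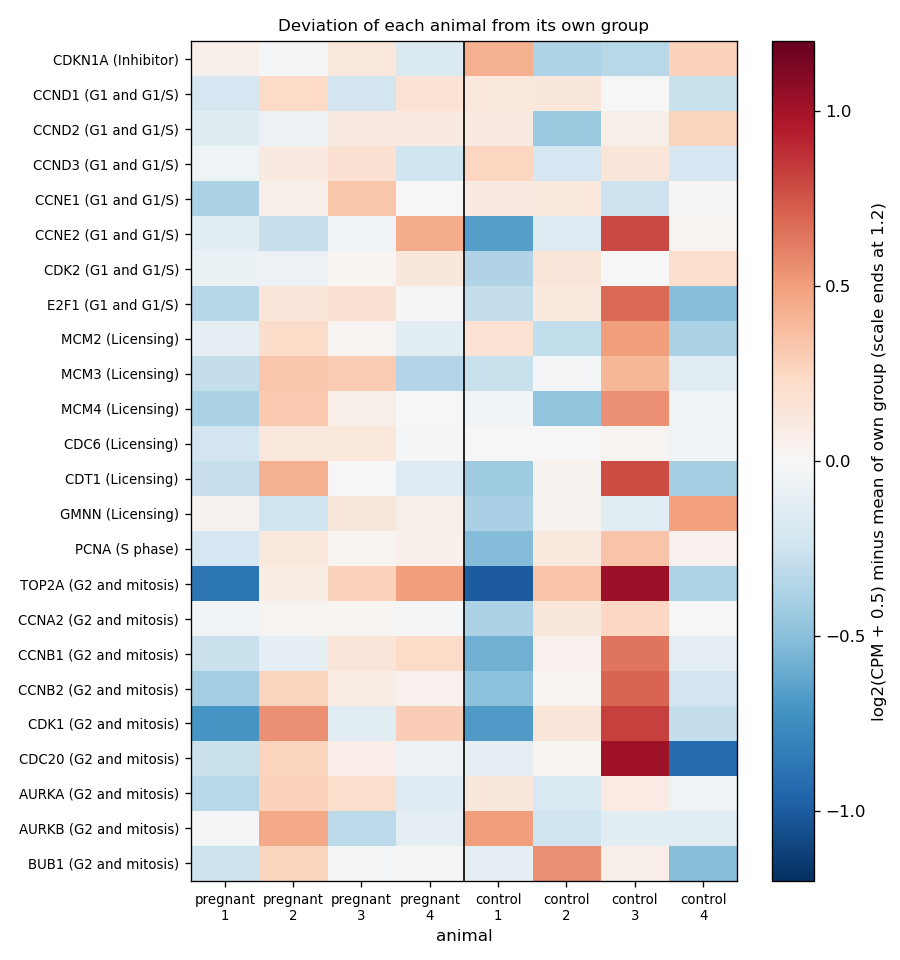
Deviation of each animal from the mean of its own group for the 24 genes, on a log2(CPM + 0.5) scale, pregnant animals left. Control replicate 3 is red (above its group) for most replication and mitosis genes, and pregnant replicate 1 and control replicate 1 are blue for most of them.

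Control replicate 3 and pregnant replicate 1 also stood out in mitosis genes outside the set, but pregnant replicate 2 did not lead there. On a list of 71 other mitosis genes 57 were tested. Of these, 41 (71.9%) were highest among controls in control replicate 3, where 19.8% of all transcripts tested were. In pregnant replicate 1, 38 (66.7%) were lowest among pregnant animals, where 28.3% of all transcripts were. Pregnant replicate 4 was highest among pregnant animals for 23 of the 57 and pregnant replicate 2 for 17. The median deviations were 0.51 in control replicate 3 and -0.40 in pregnant replicate 1. Among 36 other replication genes the pattern was weaker. Control replicate 2 was highest among controls for 14 of them and control replicate 3 for 12 (33.3%). Pregnant replicate 1 was lowest among pregnant animals for 18 (50.0%), and pregnant replicate 3 was highest for 16. Control replicate 3 had the lowest total count of the 8 libraries (28035007). Next came pregnant replicate 1 (29009827) and control replicate 1 (30547312), the animals that were low for many of these genes. The summed marker levels of control replicate 3 were 27.5 CPM for T cells, the lowest of the 8 animals, 438 CPM for macrophages, and 3066 CPM for epithelium, inside the range of the other controls. The part of cell composition and depth in the values of these animals was not tested.

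**Figure D4:**
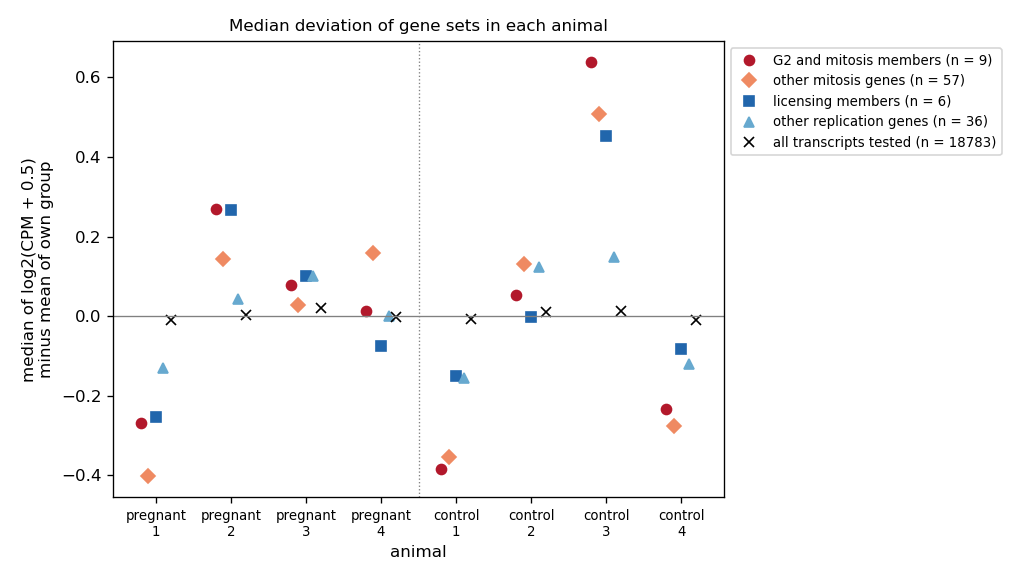
Median deviation of gene sets in each animal from the mean of its own group, pregnant animals left. Mitosis genes of the set and outside it lie at 0.64 and 0.51 in control replicate 3 and at -0.27 and -0.40 in pregnant replicate 1, while all transcripts tested stay near 0.

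Spread was larger among controls for most of these genes. The median SD on the log2 scale over the 9 G2 and mitosis genes was 0.289 in pregnant and 0.502 in control animals, against 0.223 and 0.264 over all transcripts tested. For 13 of the 16 replication and mitosis genes the SD was larger in controls, as it was for 60.7% of all transcripts. The biological coefficient of variation estimated by edgeR was 37.9% at the median of the 9 genes and 21.7% over all transcripts, which widens the intervals given for TOP2A, CDK1 and CDC20.

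Per kilobase of exon, the levels of the 24 genes differed widely. CCND3 was highest (46.1 CPM per kb in pregnant and 31.4 in control animals), and CDKN1A came next in pregnant animals (27.3 against 6.61). PCNA (8.88 in pregnant and 6.99 in control animals), MCM4 (8.68 in pregnant, 6.67 in control animals), CCND2 (8.06 in pregnant, 6.66 in control animals), CCND1 (7.78 in pregnant, 6.84 in control animals) and MCM2 (7.44 in pregnant, 7.70 in control animals) followed at like levels. In controls CDKN1A lay just below these genes, and in pregnant animals above all of them. The 9 genes of G2 and mitosis ranged from AURKB, at 4.55 CPM per kb in pregnant and 5.00 in control animals, down through TOP2A, at 1.09 CPM per kb in pregnant and 0.872 in control animals, to BUB1, the lowest of the 24 genes, at 0.277 in pregnant and 0.183 in control animals. The models of CCND2 (571 bases) and CCND3 (489 bases) are short, so the level of these 2 genes holds for the exons in the model only.

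**Figure D5:**
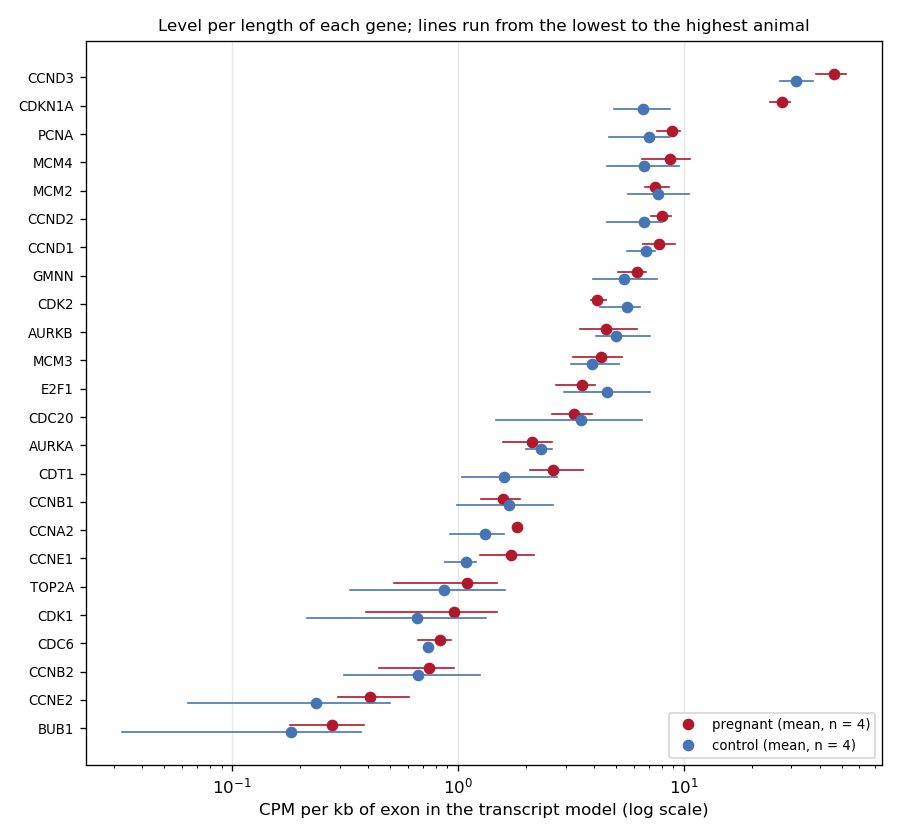
Mean level of each gene per kilobase of exon in pregnant and control animals (n = 4 each) on a log scale, with lines from the lowest to the highest animal. CDKN1A is the gene whose group means lie farthest apart, at 27.3 and 6.61 CPM per kb.

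Other genes of the cycle changed singly and in both directions. Of 36 other replication genes 4 rose and 2 fell, a share of 16.7% against 21.3% of all transcripts, with a median log2 change of 0.18. GINS2, a subunit of the replicative helicase, fell to 2.73 ± 0.680 CPM in pregnant animals, against 6.22 ± 1.01 CPM in controls (log2 change -1.18 ± 0.23, edgeR adjusted p = 0.00467). PRIM2, a subunit of primase, rose to 12.5 ± 2.87 CPM in pregnant animals, against 7.25 ± 0.682 CPM in controls (log2 change 0.78, edgeR adjusted p = 0.0136). RFC2, a subunit of the clamp loader that places PCNA, was at 83.9 ± 12.8 CPM in pregnant and 44.1 ± 5.17 CPM in control animals (edgeR adjusted p = 9.56e-04), but its model shares exonic bases with CLIP2 on the opposite strand.

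Of the 57 other mitosis genes tested 5 rose and 2 fell, a share of 12.3% against 21.3% of all transcripts, with a median log2 change of 0.23. TACC3, which stabilises spindle microtubules, rose to 17.8 ± 2.75 CPM in pregnant animals, against 7.32 ± 1.92 CPM in controls (log2 change 1.28 ± 0.20, edgeR adjusted p = 0.00119). The kinetochore gene CENPH fell to 1.72 ± 0.0948 CPM in pregnant animals, against 3.29 ± 0.873 CPM in controls (log2 change -0.93, edgeR adjusted p = 0.0223), and did not pass when any 1 of 5 animals was left out (pregnant replicates 2, 3 and 4, and control replicates 2 and 3, edgeR adjusted p = 0.0552 to 0.0716) or with a replicate block (0.0523), and all alternatives gave 0.00305 to 0.0716. CKS1B, a small partner of cyclin-dependent kinases, also fell (-0.51 ± 0.15), lost its call without any of 6 animals (edgeR adjusted p = 0.0600 to 0.111; all alternatives gave 0.0183 to 0.111), and shares exonic bases with SHC1 on the opposite strand.

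CDKN1A is a classical target of the transcription factor p53, and a list of genes taken as p53 targets was read beside it. Of 18 tested p53 targets 4 rose and 2 fell, 33.3% against 21.3% of all transcripts, with a median log2 change of 0.10. The death receptor gene FAS rose to 20.7 ± 5.59 CPM in pregnant animals, against 6.75 ± 1.604 CPM in controls (log2 change 1.61, edgeR adjusted p = 7.28e-04). The stress gene GADD45B rose by 1.10 ± 0.19 on the log2 scale (edgeR adjusted p = 0.00217). TP53INP1 fell to 13.04 ± 2.84 CPM in pregnant animals, against 23.7 ± 2.84 CPM in controls (edgeR adjusted p = 0.00518). CCNG1, also induced by p53, rose (edgeR adjusted p = 0.0388) and is counted with the other G1 genes. Its groups overlapped, and it no longer passed when any 1 of 6 animals was left out. The part of p53 in the level of CDKN1A was not tested. Of the 3 tested other inhibitors of cyclin-dependent kinases 0 passed, also 0 at an unadjusted p under 0.05 and 0 by DESeq2 or limma voom.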

How the data were processed

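Endometrial poly(A) RNA of 8 gilts was sequenced, 1 library per animal, without strand marking. The authors deposited a table of whole-number counts of reads for each library, with 1 row per transcript of a merged assembly, and exon positions on Sscrofa10.2 (other values, no measurement). Tools listed, without roles, per the submitters' processing notes are CASAVA 1.6, TopHat 1.4, Cufflinks 1.3 and DESeq, and the counting tool is not given in the sources used here.

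Symbols came from a RefSeq table of Sscrofa11.1 (names only; 16270 genes by ID, 103 by accession). The main test was the robust quasi-likelihood F test of edgeR 4.0.16 (R 4.3.3) with group as the only term, after TMM scaling and filterByExpr (minimum count 10), adjusted over 18783 transcripts. SE and 95% intervals are those implied by the F statistic. Alternatives were DESeq2 1.42.0, limma 3.58.1 voom, RLE scaling, no filter, a replicate block, 1 transcript per gene, the lowest isoform, and leaving out each animal. The tests were run on simulated data, where DESeq2 made false calls more often than edgeR and limma voom and did not meet the limit first set, which was then widened for it, so its additional calls carry less weight. Members and lists were chosen with earlier results of these data known. Named with full values were members that passed and 8 fixed genes where matched, plus members near the threshold, chosen after their values were seen, and up to 3 genes per other list with the smallest p (CCNG1 and FANCB are in the closing section, and 1 gene that the rule names is not reported here).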

Additional observations from a re-analysis of the deposited data

Results flagged for a closer look

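AURKB in control replicate 1 stood at 8.48 CPM, with the other 3 controls between 4.88 and 5.28 CPM, and its gap to the nearest of them was 0.890 of the range of the group. It was the 1 value of this kind in 72 groups of 4 animals (36 genes in pregnant and in control animals), and chance flags about 1 group in 20. Without this animal the log2 change of AURKB was 0.11.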

How the results depend on the processing

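Of the 24 cell cycle genes 2 rose and 0 fell under RLE scaling, without the filter, with limma voom, with 1 transcript per gene, with the lowest isoform and with the replicate block, and 3 rose with DESeq2. Leaving out 1 animal gave 1 to 2 higher and 0 to 1 lower, and over all transcripts 1599 to 2110 higher and 1265 to 2017 lower, with 1265 lower without pregnant replicate 2. The log2 change of MCM2 turned to 0.0013 and that of CDC20 to 0.12 with limma voom, and that of CDC20 to 0.072 with the replicate block. With 1 animal left out, log2 changes ran from -0.17 to 0.14 for MCM2, -0.25 to 0.21 for CCNB1, -0.028 to 0.68 for CCNB2, -0.36 to 0.40 for CDC20 and -0.33 to 0.11 for AURKB. The cause was not tested.

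Other lists had small counts. Without the filter 1 replication gene fell and 0 repair genes rose. With DESeq2 9 replication genes rose and 5 fell, 8 mitosis and 2 G1 genes rose, and 2 repair genes fell, and with limma voom 2 G1 genes rose. With the replicate block 1 mitosis gene fell and 0 repair genes rose. Leaving out 1 animal gave, higher and lower, 2 to 4 and 1 to 3 replication genes, 1 to 6 and 0 to 2 mitosis genes, 0 to 1 and 0 to 1 G1 genes, 2 to 4 and 2 to 3 p53 targets, and 0 to 1 and 0 to 2 repair genes. In the labels, same-numbered animals shared only a number. Their deviations correlated at 0.186, -0.0932, -0.0318 and 0.0854, and 1 of 4 pregnant animals correlated best with its own number. With 4 animals per group these values cannot settle whether the animals were paired.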

Other observations

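Of 19 tested DNA repair genes 1 rose and 1 fell, 10.5% against 21.3% of all transcripts, with a median log2 change of 0.18. FANCB of the crosslink repair pathway was at 0.516 ± 0.117 CPM in pregnant and 0.154 ± 0.0988 CPM in control animals (SD, n = 4 each; edgeR adjusted p = 0.0316), on 68 and 20 reads, and did not pass without any of 6 animals, without the filter or with a replicate block (range over the alternatives 0.0147 to 0.0906).

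Of 24 other genes of G1 and the RB and E2F pathway 1 rose and 0 fell, 4.17% against 21.3% of all transcripts, with 4 at an unadjusted p under 0.05. By DESeq2 and by limma voom 2 rose. The one that passed was CCNG1, which encodes cyclin G1, another product induced by p53, at 71.9 ± 12.8 CPM in pregnant and 46.2 ± 11.7 CPM in control animals (log2 change 0.64 ± 0.19, edgeR adjusted p = 0.0388). The groups overlapped, and the call was lost without any of 6 animals (range over the alternatives 0.00936 to 0.105).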
